A study of Mus musculus with 8 samples.

Results

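RNA levels of 8 genes were compared between hearts with and without an induced deletion of Mettl3, namely Esr1, whose sequence is carried by the transgene of the knockout, and 7 genes of the receptor network that controls energy metabolism in heart muscle, Esrra, Esrrb, Esrrg, Perm1, Ppard, Rxra and Thra. They were picked by gene symbol, and 8 of the 23045 genes listed matched, 1 row for each symbol. The RNA-seq data held 4 libraries from WT hearts, with the genotype Mettl3 lox/lox, and 4 from Mettl3 KO hearts, with the genotype Mettl3 lox/lox:alphaMHC-MerCreMer pos. Both genotypes carried the loxP-flanked Mettl3 gene and both received tamoxifen into the abdomen. The daily dose was 100 µg for each 1 g of body weight, for 7 days, at an age of 10 to 16 weeks. METTL3 is the enzyme that places N6-methyladenosine on RNA. In MerCreMer, the recombinase Cre sits between mutated ligand-binding domains of the estrogen receptor. The protein is made from the promoter of Myh6 (αMHC) in cardiomyocytes and enters the nucleus when tamoxifen binds. The deletion is thus aimed at cardiomyocytes and not at the other cells of the heart. WT mice carried no MerCreMer, so the presence of active Cre and the loss of Mettl3 cannot be told apart here. The labels number the libraries but do not say that each is a separate animal, and the p-values then measure only the spread between these samples.

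Nuclear receptors are transcription factors, many of which are switched by a small lipophilic ligand. The estrogen-related receptors (ERR) ERRα, ERRβ and ERRγ, encoded by Esrra, Esrrb and Esrrg, resemble the estrogen receptor in sequence but bind no estrogen, and depend on the PGC-1 coactivators to turn on genes of mitochondria and fatty acid oxidation. PERM1 is a muscle protein induced by PGC-1 and ERR that acts in the same program. PPARδ (Ppard) responds to fatty acids and binds DNA as a pair with the retinoid X receptor RXRα (Rxra), and the thyroid hormone receptor TRα (Thra), the main thyroid receptor of cardiomyocytes, uses the same partner. ERRs bind a single extended site, TCAAGGTCA, whereas the receptors that pair with RXR bind repeats of its core, AGGTCA.

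The reads counted over the listed genes after duplicate removal summed to 2631904 to 3061260 in each library, an estimate recovered from the spacing of low values. The values below are normalised read counts, and the libraries summed to between 2839589 and 2916986 of them. A count of 0 allows up to 3 reads, which is a normalised read count of 2.78 to 3.33 depending on the library and covers counting error only. A gene was called when its adjusted p in limma was below 0.05. By this rule 1607 of 20313 genes tested were called (7.91%), 958 of them higher in Mettl3 KO (4.72%) and 649 lower (3.19%), and the groups did not overlap for 2337 genes (11.5%). The targeted gene was checked first. Mettl3 stood at 105, 133, 118 and 107 in WT and at 74, 68, 69 and 78 in Mettl3 KO, lower in every Mettl3 KO library, with a log2 fold change of -0.67 (limma, SE 0.10, adjusted p = 0.000184). In whole heart tissue, fewer cells of a type and less RNA per cell cannot be told apart, which holds for every value here.

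All 8 genes were tested, and 4 of them were called, all 4 higher in Mettl3 KO: Esr1, Esrrb, Esrrg and Perm1. The same 4 genes were those whose groups did not overlap, beside 11.5% of all genes tested. Esrra, Ppard, Rxra and Thra were not called, and their fold changes lay between -0.03 and 0.01 on the log2 scale. The median log2 fold change was 0.12 over the 8 genes and -0.01 over all genes tested. The list is short and its genes differ in role, the 1 carried by the transgene included, so the count of 4 is given beside the 7.91% of all genes as a description.

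**Figure D1:**
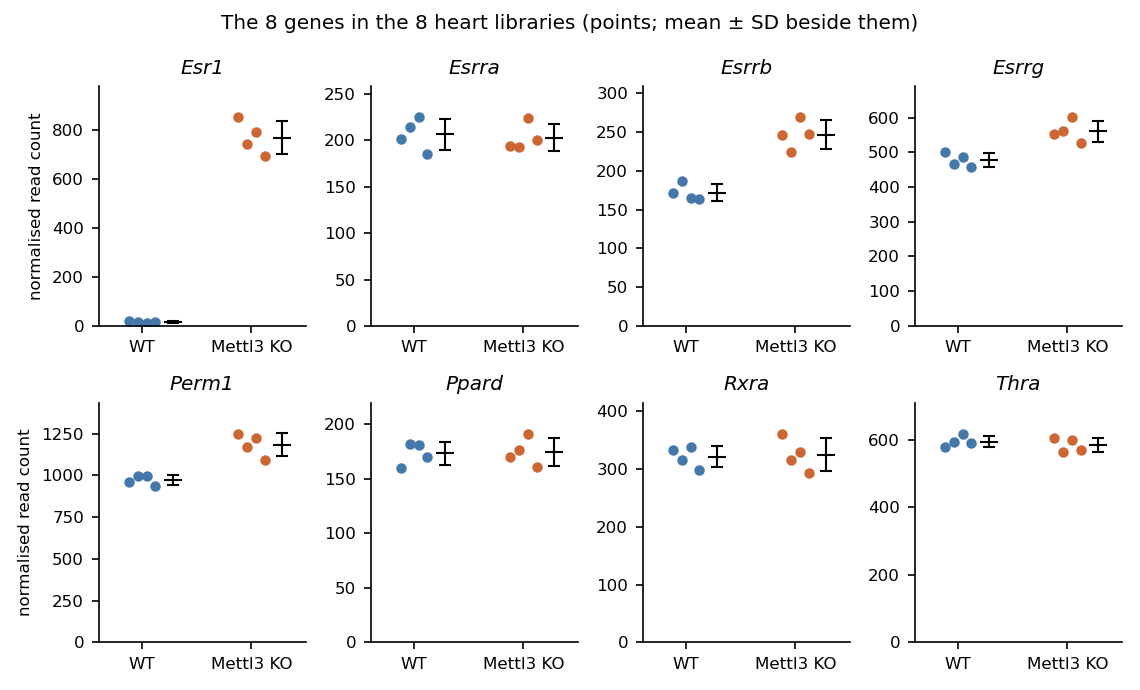
Normalised read counts of the 8 genes in 4 WT (blue) and 4 Mettl3 KO (orange) libraries, on axes that start at 0, with the mean and SD of each group to the right of its points. Esr1, Esrrb, Esrrg and Perm1 separate by genotype, and the points of Esrra, Ppard, Rxra and Thra overlap.

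Esr1 (ENSMUSG00000019768, chromosome 10, 4561593 to 4955614, plus strand, in the mm39 build of the deposited table) encodes estrogen receptor α, from which the Mer domains of the transgene were taken. It stood at 20, 17, 13 and 17 normalised reads in WT and at 851, 741, 789 and 693 in Mettl3 KO. Every Mettl3 KO library lay far above every WT library. The WT values lay above the limit that a count of 0 allows, so reads matching Esr1 were also counted in the WT libraries. That limit covers counting error only, and carry-over of reads between libraries was not tested. The mean rose from 16.8 ± 2.87 (SD, n = 4) to 769 ± 67.5, a ratio of 45.9, with a log2 fold change of 5.45 (95% CI 5.22 to 5.67, limma adjusted p = 1.35e-19). This was the lowest p of all genes tested and the second largest increase, after Bmp10, an atrial gene listed at 0 in all 4 WT libraries. Gene counts do not tell reads of the endogenous transcript from those of the transgene, and the values show RNA that matches Esr1 exons, not estrogen receptor protein.

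Ranked by the group mean of the normalised read count, not per length, Esr1 was at the 38.6th percentile of tested genes in WT and at the 97.0th in Mettl3 KO. Since the transgene is driven by the promoter of Myh6, the α myosin heavy chain gene, both were compared within each library. Esr1 came to 15.2%, 14.4%, 14.3% and 14.0% of the Myh6 value in the 4 Mettl3 KO libraries, and to 0.330% ± 0.0587 (SD, n = 4) in WT. These are ratios of values after duplicate removal, and Myh6 had the highest number of reads per exon base (0.775) of the genes compared below. Whether duplicate removal brought the 4 percentages closer together was not tested. Myh6 itself ranged from 4882 to 5435 in WT and from 4942 to 5613 in Mettl3 KO, with a log2 fold change of 0.06 (95% CI -0.02 to 0.14, limma adjusted p = 0.417).

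Duplicate removal sets an upper limit on the count of a gene. Removing duplicates from single-end reads keeps at most 1 read for each start position on a strand, so a gene cannot hold many more reads than it has bases. Among 6738 genes with at least 100 reads on average and at least 1000 exon bases, the highest density was 0.775 reads per exon base, in Myh6, and the median was 0.0448. Esr1 was counted at 768, 749, 755 and 745 reads in the 4 Mettl3 KO libraries and at 21, 18, 14 and 16 in WT. Over the 1797 coding bases of Esr1, of which the transgene holds only part, the reads in Mettl3 KO came to 0.420 per coding base (0.0552 per base over all exons, the measure used for the other genes). Correcting every gene for start positions already taken by another read, an alternative chosen after seeing the data, gave a log2 fold change of 5.49 for Esr1 and 0.06 for Myh6. This correction takes the reads to be spread over all exons of a gene, and no correction over the part of Esr1 in the transgene was made, so 45.9 is the ratio of the values as processed. Of the other genes, Perm1 reached 0.298 reads per exon base in Mettl3 KO, Thra 0.125 and the remaining ones less than 0.09.

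**Figure D2:**
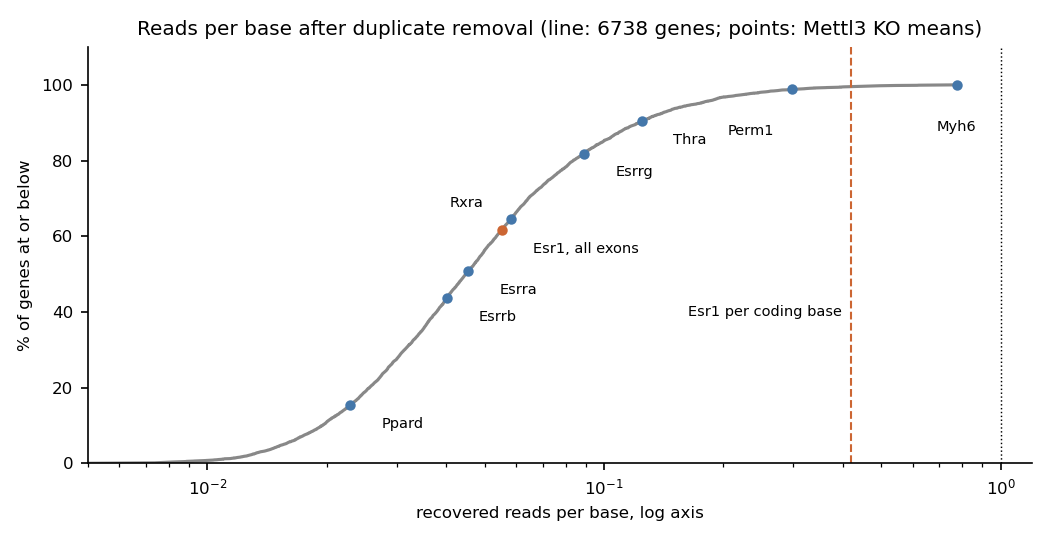
Cumulative share of 6738 genes (grey line, y axis, %) at or below a given number of recovered reads per exon base (x axis, log scale, mean over the libraries), with the Mettl3 KO means of the 8 genes and Myh6 as points, all per exon base. The line ends at 0.775, short of the dotted line at 1 read per base, with Myh6 at its end, and the dashed line marks Esr1 per coding base (0.420), a different denominator that is not ranked against the other genes.

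The transgene carries ligand-binding domains and not the whole receptor, so the Esr1 values do not show a rise of the whole receptor. Both genotypes received tamoxifen. Genes known to respond to the estrogen receptor were looked at beside Esr1, 16 listed and 12 tested. 2 were called, both higher, and 10 were not, beside 7.91% called over all genes tested (4.72% higher). Across the 12, the median log2 fold change was 0.08. Igf1, a growth factor, rose from 312, 246, 261 and 240 in WT to 320, 317, 327 and 334 (log2 fold change 0.30, limma adjusted p = 0.0109). Ccn5, a secreted matrix protein of the CCN family, went from 0, 3, 4 and 7 to 9, 11, 10 and 20 (log2 fold change 1.86, limma adjusted p = 0.0183), with WT values near the limit of a count of 0. Its log2 fold change was 1.07 with a pseudocount of 5 and 1.25 without WT replicate 1. Both genes lost the call in some alternatives, Igf1 when WT replicate 2 (adjusted p = 0.0516) or WT replicate 4 (0.0534) was left out, and Ccn5 when WT replicate 1 (0.0530) or any of Mettl3 KO replicates 2, 3 and 4 (0.0539 to 0.0961) was. Greb1, among the genes most closely tied to estrogen receptor activity, was at 8, 7, 5 and 7 in WT against 6, 9, 8 and 7 in Mettl3 KO. The fibroblast markers described further on moved in the same direction as Igf1 and Ccn5, and their part in these values was not tested.

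The ERR genes differed among themselves. Esrrb (ENSMUSG00000021255, chromosome 12, 86407891 to 86568402, plus strand) had 171, 187, 165 and 164 normalised reads in WT against 246, 224, 269 and 247 in Mettl3 KO, with no overlap. Its mean was 172 ± 10.6 (SD, n = 4) in WT and 247 ± 18.4 in Mettl3 KO, 43.5% higher, with a log2 fold change of 0.52 (95% CI 0.37 to 0.67, limma adjusted p = 7.58e-05). This was more than the median absolute change of called genes, 0.42.

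Esrrg (ENSMUSG00000026610, chromosome 1, 187340988 to 187947082, plus strand), an ERR found mainly in tissues with high oxidative metabolism, stood at 500, 467, 487 and 458 in WT and at 554, 562, 601 and 528 in Mettl3 KO. The groups did not overlap, but the gap between the highest WT and the lowest Mettl3 KO library was small. The mean went from 478 ± 19.0 (SD, n = 4) to 561 ± 30.2, 17.4% higher, with a log2 fold change of 0.23 (95% CI 0.12 to 0.34, limma adjusted p = 0.00696). The gene kept its call in all alternatives, with an adjusted p between 0.00567 and 0.0486. Its span overlaps 4 other annotated genes, 2 on its own strand and 2 on the other. The larger of those on its strand, Gm38315, shares 2437 bases with it and stood at 25.3 in WT against 24.5 in Mettl3 KO. Reads that overlapped exons of several genes had been left out of the counts.

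Esrra (ENSMUSG00000024955, chromosome 19, 6888345 to 6899208, minus strand) was counted at 202, 214, 225 and 185 in WT against 194, 193, 224 and 200 in Mettl3 KO. The groups overlapped across nearly their whole range. The means were 207 ± 17.1 (SD, n = 4) and 203 ± 14.5, and the 95% CI of the log2 fold change, -0.18 to 0.13, left room for a change of that size in either direction (log2 fold change -0.03, limma adjusted p = 0.914).

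Whether the 3 ERR genes moved differently was tested on their ratios within each library, which no scaling of libraries can alter. The 3 ratios were compared with an exact permutation test (two-sided, 4 against 4, smallest possible p = 0.0286), after their values had been seen. The ratio of Esrrb to Esrra was -0.26 ± 0.125 on the log2 scale in WT and 0.28 ± 0.055 in Mettl3 KO, higher in all 4 Mettl3 KO libraries than in any WT library (exact p = 0.0286, adjusted over the 3 ratios 0.0429). Esrrg rose over Esrra by 0.26 (exact p = 0.0286, adjusted 0.0429). The difference between Esrrb and Esrrg, 0.29, did not pass (exact p = 0.0571, adjusted 0.0571).

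The sum of the 3 genes was 856 ± 33.0 in WT against 1011 ± 56.3 in Mettl3 KO (SD, n = 4 each). Esrrg made up 55.8% of it in WT and 55.6% in Mettl3 KO. Esrra gave 24.1% ± 1.30 in WT against 20.1% ± 0.514 in Mettl3 KO, and Esrrb 20.1% ± 1.16 and 24.4% ± 1.05, so that the reads of Esrrb were fewer than those of Esrra in all 4 WT libraries and more numerous in all 4 Mettl3 KO libraries. These are shares of reads, which depend on transcript length. Per kilobase of exon, Esrra stood at 47.1 ± 3.91 and Esrrb at 28.4 ± 1.76 in WT, and at 46.2 ± 3.31 and 40.8 ± 3.04 in Mettl3 KO, where the ranges of both genes met.

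**Figure D3:**
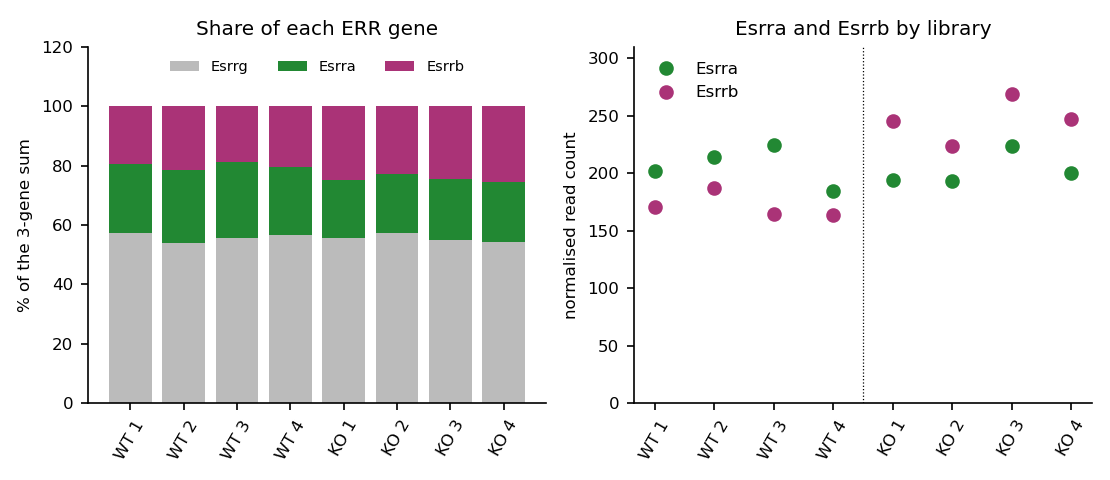
Left, share of Esrrg (grey), Esrra (green) and Esrrb (purple) in the sum of their normalised read counts (y axis, %) for each of the 8 libraries. Right, normalised read counts of Esrra and Esrrb in the same libraries; Esrra lies above Esrrb in the 4 WT libraries and below it in the 4 Mettl3 KO libraries.

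Perm1 (ENSMUSG00000078486, chromosome 4, 156300325 to 156305764, plus strand) had the highest level per kilobase of the 8 genes in WT. It had 959, 996, 999 and 938 normalised reads in WT against 1249, 1169, 1223 and 1094 in Mettl3 KO. Every Mettl3 KO library was above every WT library. The mean rose from 973 ± 29.6 (SD, n = 4) to 1184 ± 68.5, by 21.7%, with a log2 fold change of 0.28 (95% CI 0.19 to 0.37, limma adjusted p = 0.000273). The correction for taken start positions gave 0.32 (adjusted p = 9.15e-05).

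The promoter of Perm1 is shown because it was the only one of a called gene that held the receptor core AGGTCA. RefSeq promoters of 300 bases, from 250 before to 50 after the annotated start in the GRCm38.p6 build, were found for 7 of the 8 genes, 13 promoters in all; Thra was not among them. They were searched on both strands for AGGTCA, which 16.3% of 32851 promoters hold, for the ERR site TCAAGGTCA (0.423%) and its looser form TNAAGGTCA (1.28%), and for 2 cores spaced as a direct repeat by 1 base (DR1, AGGTCANAGGTCA, used by PPAR and RXR, 0.0396%), by 4 bases (DR4, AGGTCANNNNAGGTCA, used by TR and RXR, 0.0152%), or as an inverted repeat by 3 bases (ERE, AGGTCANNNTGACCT, the estrogen receptor site, 0.0213%). The longer motifs contain the core. None of the longer motifs occurred in the 13 promoters. The core occurred once in Perm1 (chr4:156215677-156215976, plus strand), starting at position -202 from the annotated start, and 2 times in the second promoter of Rxra (chr2:27709042-27709341, plus strand), at -87 and -48. Capitals mark the core, read as TGACCT where it lies on the other strand:
Perm1: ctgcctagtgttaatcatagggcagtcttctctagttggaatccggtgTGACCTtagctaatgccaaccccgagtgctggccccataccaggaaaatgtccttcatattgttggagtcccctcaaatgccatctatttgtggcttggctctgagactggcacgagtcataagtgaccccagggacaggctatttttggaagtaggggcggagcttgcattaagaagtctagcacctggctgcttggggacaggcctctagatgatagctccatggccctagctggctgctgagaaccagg
Rxra: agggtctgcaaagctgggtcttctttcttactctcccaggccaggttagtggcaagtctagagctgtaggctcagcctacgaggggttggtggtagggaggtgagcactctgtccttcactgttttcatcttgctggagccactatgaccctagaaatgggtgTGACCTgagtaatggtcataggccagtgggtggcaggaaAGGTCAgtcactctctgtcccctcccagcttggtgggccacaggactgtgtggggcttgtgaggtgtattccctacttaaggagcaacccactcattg

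Of these 2 promoters, that of Perm1 belongs to a called gene and that of Rxra to a gene that was not called. Rxra (ENSMUSG00000015846, chromosome 2, 27566452 to 27652969 in mm39, plus strand) had 333, 315, 339 and 299 normalised reads in WT against 361, 315, 330 and 293 in Mettl3 KO. Its groups overlapped, and both the highest and the lowest of the 8 values were in Mettl3 KO. The means were 322 ± 18.1 (SD, n = 4) and 325 ± 28.5, with a log2 fold change of 0.01 (95% CI -0.13 to 0.15, limma adjusted p = 0.952).

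Ppard (ENSMUSG00000002250, chromosome 17, 28451674 to 28520448, plus strand) was counted at 160, 182, 181 and 170 in WT against 170, 176, 191 and 161 in Mettl3 KO. The 2 groups covered almost the same range, with means of 173 ± 10.4 (SD, n = 4) and 175 ± 12.6 and a log2 fold change of 0.01 (95% CI -0.15 to 0.17, limma adjusted p = 0.971). Its relative Ppara, the PPAR best known for the control of fatty acid oxidation in the heart, stood at 300, 268, 347 and 284 in WT and at 312, 261, 308 and 285 in Mettl3 KO (log2 fold change -0.04, limma adjusted p = 0.857).

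Thra (ENSMUSG00000058756, chromosome 11, 98631464 to 98659832, plus strand) was counted at 577, 592, 617 and 590 in WT against 605, 562, 600 and 569 in Mettl3 KO. The groups overlapped, the means were 594 ± 16.7 (SD, n = 4) and 584 ± 21.6, and the interval of the log2 fold change was the narrowest of the 4 genes not called (-0.02, 95% CI -0.12 to 0.07, limma adjusted p = 0.844). Thra encodes a hormone-binding receptor and a variant that does not bind the hormone, which gene counts do not separate. The 3' end of the gene lies over that of Nr1d1, a clock receptor on the opposite strand, for 1075 bases, and counting by strand kept them apart. Nr1d1 had 273, 239, 300 and 220 in WT against 265, 191, 242 and 238 in Mettl3 KO (log2 fold change -0.14, limma adjusted p = 0.457). A lncRNA on the strand of Thra (ENSMUSG00000121096) overlaps its span by 1374 bases, and stood at 65.5 in WT and 55.8 in Mettl3 KO; reads over exons of both had been left out.

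Per kilobase of exon, the WT levels fell in the order Perm1 (249 ± 7.58), Thra (129 ± 3.62), Esrrg (77.0 ± 3.06), Rxra (58.9 ± 3.32), Esrra (47.1 ± 3.91), Esrrb (28.4 ± 1.76), Ppard (23.1 ± 1.38) and Esr1 (1.23 ± 0.210), as SD of 4 libraries. No neighbouring pair in this order overlapped. In Mettl3 KO the order was the same apart from Esr1, whose transgene reads come from an unknown part of its exons and give no level per kilobase. The length of all exons of a gene was taken from mouse gene models of an older build and takes no account of which transcripts the heart makes.

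The variation of the genes within a genotype was compared between pairs. Over the 28 pairs, Pearson's r of the deviations from the genotype mean ran from -0.386 (Esr1 and Esrra) to 0.858 (Perm1 and Rxra), with Perm1 and Thra next at 0.749. Esr1 had an r of at most 0.267 with any of the other 7. The points share a library and its scaling, and r is given as a description over 8 libraries. Among 6778 other genes with a mean of at least 100, the deviations of Esr1 were most like those of Mef2c (r = 0.960), Irx3 (0.960) and Usp3 (0.952), and those of Perm1 most like Mapk1ip1l, Mrpl45 and Ecpas (0.983 each). Ecpas, which encodes a proteasome adaptor, was called lower in Mettl3 KO (log2 fold change -0.15, limma adjusted p = 0.0129), the other 5 were not called. These genes were picked as the 3 highest r of 6778, and how high an r chance alone would give was not computed. The deviations of Esr1 also pool WT libraries of 14 to 21 reads with Mettl3 KO libraries of 745 to 768 reads, which include the transgene.

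The rest of the receptor family and the pathways around it were compared next. Of the genes called in these lists, estrogen response genes included, Mlycd and Tfam kept their call with atrial genes as a covariate (given at the end), and 12 lost it (limma adjusted p 0.0528 to 0.988). Among these the log2 fold change of Myh7 went from 0.85 to 0.012, and it became smaller by over 1.5 times for Me1 (-0.30 to -0.16), Kcnd2 (-0.39 to -0.23), Vegfa (-0.26 to -0.15) and Lpl (-0.17 to -0.11). It moved by less for Hcn2 (-0.87 to -0.62), Rxrg (-0.27 to -0.22), Igf1 (0.30 to 0.26), Ep300 (0.21 to 0.18) and Aldh1a1 (0.38 to 0.35), and it was larger for Aldh1a2 (0.51 to 0.54) and Ccn5 (1.86 to 2.16). The covariate itself differed by genotype, at 1.39 to 5.09 in WT and 4.96 to 7.15 in Mettl3 KO. With it the SE rose, for Rxrg from 0.064 to 0.088, for Ep300 from 0.045 to 0.061 and for Tfam from 0.068 to 0.091. A call can be lost through a larger SE alone, and the part of atrial tissue in these changes was not tested. Of 40 other nuclear receptor genes listed, 31 were in the table and 30 were tested. 1 was called, lower, beside 7.91% of all genes tested, and the median log2 fold change was -0.06. Rxrg, the RXR most restricted to muscle and brain, went from 242, 265, 262 and 246 to 217, 204, 207 and 212 (-0.27, limma adjusted p = 0.00977), and so fell while Rxra did not pass the test. The difference between the changes of Rxrg and Rxra was not tested. The thyroid receptor Thrb was at 307 and 289 on average (-0.08, limma adjusted p = 0.569).

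**Figure D4:**
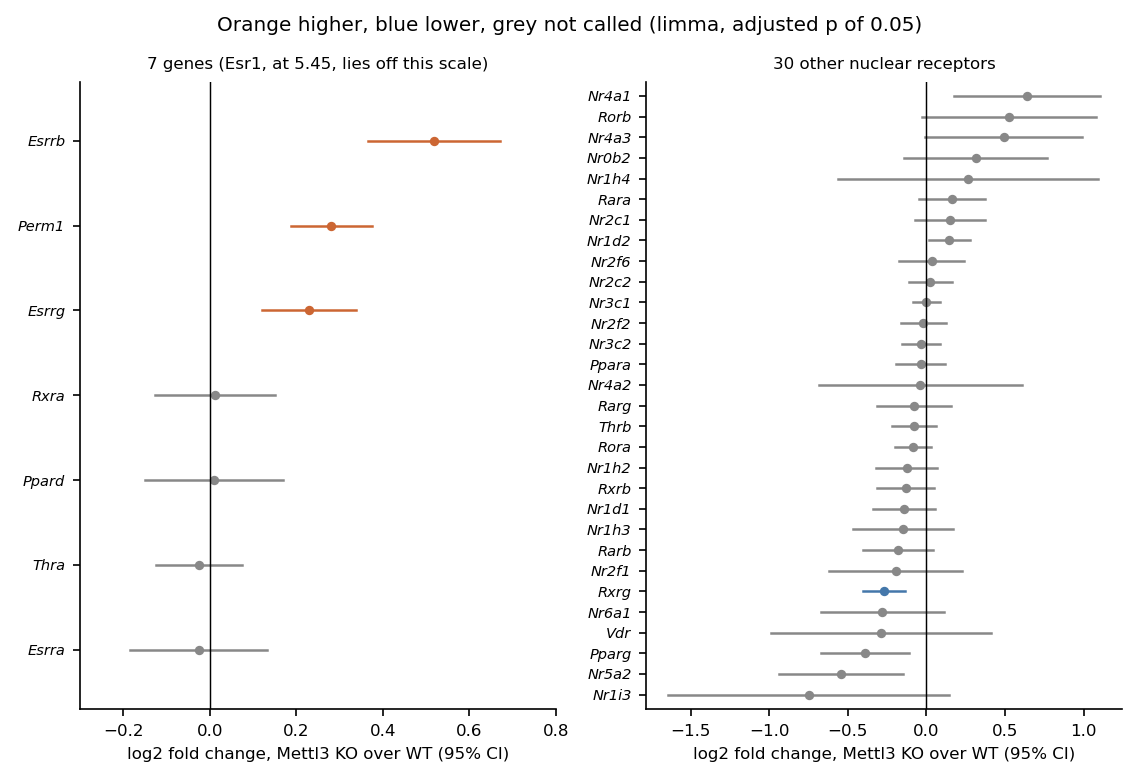
Log2 fold change of Mettl3 KO over WT with its 95% CI (x axis) for 7 of the 8 genes (left) and for 30 other nuclear receptor genes (right), with genes called by limma higher in orange, lower in blue and the rest in grey. Esrrb, Perm1 and Esrrg lie to the right of 0 with their whole interval, and Rxrg lies to the left. The intervals are not adjusted for the number of tests, and those of Nr1d2, Nr4a1, Nr5a2 and Pparg, not called, also leave out 0.

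Of 16 coregulators on which these receptors depend, all tested, 1 was called, beside 7.91% of all genes tested. Their median log2 fold change was 0.06. Ep300, a histone acetyltransferase, rose from 676, 663, 657 and 697 to 754, 819, 782 and 754 (0.21, limma adjusted p = 0.00518). Ppargc1a, which encodes PGC-1α, the main partner of ERRs and an inducer of Perm1, had 1191, 1134, 1407 and 1249 in WT against 1287, 1188, 1257 and 1219 in Mettl3 KO, with a log2 fold change close to 0 (95% CI -0.11 to 0.10, limma adjusted p = 0.980). Ppargc1b averaged 362 and 341 (-0.09, limma adjusted p = 0.467).

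Among 16 genes regarded as ERR and PGC-1 targets, 1 was called higher and 1 lower, beside 7.91% of all genes tested. Their median log2 fold change was 0.03. Tfam, which packages and transcribes mitochondrial DNA, went from 224, 201, 238 and 215 to 254, 271, 268 and 247 (0.24, limma adjusted p = 0.0274), and lost its call when any of WT replicates 1, 2 and 4 or Mettl3 KO replicates 2 and 3 was left out (adjusted p 0.0512 to 0.104). Vegfa, a vascular growth factor, fell from 924, 1006, 1048 and 946 to 876, 798, 809 and 781 (-0.26, limma adjusted p = 0.00109). The 14 others, enzymes of the citric acid cycle and parts of the respiratory chain among them, were not called. Cs, citrate synthase, averaged 1284 in WT against 1302 in Mettl3 KO, with an interval of -0.07 to 0.11 on the log2 scale.

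Of 22 PPAR target genes, 1 was higher, 1 lower and 20 not called, beside 4.72% higher and 3.19% lower over all genes tested. Their median log2 fold change was -0.0015. Mlycd, malonyl-CoA decarboxylase, which relieves the block on fatty acid entry into mitochondria, rose from 211, 236, 226 and 236 to 286, 318, 301 and 289 without overlap (0.39, limma adjusted p = 0.000357). Lpl, lipoprotein lipase, had 3116, 2882, 3090 and 3173 in WT against 2923, 2746, 2779 and 2494 in Mettl3 KO (-0.17, limma adjusted p = 0.0160), a call lost when WT replicate 1 or 4 was left out or when Mettl3 KO replicate 2 or 4 was dropped (adjusted p 0.0524 to 0.0730). Pdk4, a kinase that shuts off glucose oxidation, spread from 623 to 1299 over the 8 libraries, with means of 975 in WT and 973 in Mettl3 KO.

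The 14 thyroid hormone genes tested were transporters, deiodinases and targets. Of these 1 was higher, 3 lower and 10 not called, beside 4.72% higher and 3.19% lower over all genes tested. Across the 14, the median log2 fold change was -0.02. The pacemaker channel gene Hcn2 fell from 165, 105, 149 and 106 to 90, 71, 63 and 59 (-0.87, limma adjusted p = 0.000370), and the potassium channel gene Kcnd2 from 238, 196, 277 and 225 to 166, 194, 194 and 155 (-0.39, limma adjusted p = 0.0104). Me1, malic enzyme, fell from 365, 325, 378 and 343 to 331, 264, 283 and 269 (-0.30, limma adjusted p = 0.00977). Myh7, the β myosin heavy chain gene that thyroid hormone represses, had 1056, 971, 407 and 1127 in WT against 1252, 1002, 2196 and 1787 in Mettl3 KO (0.85, limma adjusted p = 0.0228). The groups of Myh7 overlapped, and the call was lost without WT replicate 3, where the log2 fold change was 0.50 (adjusted p = 0.0513), Mettl3 KO replicate 3 (0.152) or Mettl3 KO replicate 4 (0.115). With atrial genes as a covariate the log2 fold change of Myh7 was 0.012 (adjusted p = 0.988). Kcnd2 lost its call without Mettl3 KO replicate 4 (0.0605) and Me1 without Mettl3 KO replicate 2 (0.0551). The myosin and calcium pump genes Myh6 and Atp2a2, which the hormone induces, were not called.

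The retinoid genes, which take up, make or break down vitamin A derivatives, the ligands of retinoic acid receptors among them, numbered 8 tested. Of these 2 were called, both higher, beside 7.91% called over all genes tested (4.72% higher). Their median log2 fold change was 0.14. Aldh1a1 and Aldh1a2 are retinaldehyde dehydrogenases, which make retinoic acid. Aldh1a1 went from 135, 134, 138 and 160 to 181, 182, 179 and 195 (0.38, limma adjusted p = 0.00324), and Aldh1a2 from 42, 43, 40 and 38 to 67, 56, 51 and 61 (0.51, limma adjusted p = 0.0193). Aldh1a2 lost its call when WT replicate 4 was left out, and likewise for Mettl3 KO replicates 1 and 4 (adjusted p 0.0540 to 0.0612). These genes are also made by fibroblasts and epicardium, and the fibroblast markers moved with them; the part of such cells was not tested.

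**Figure D5:**
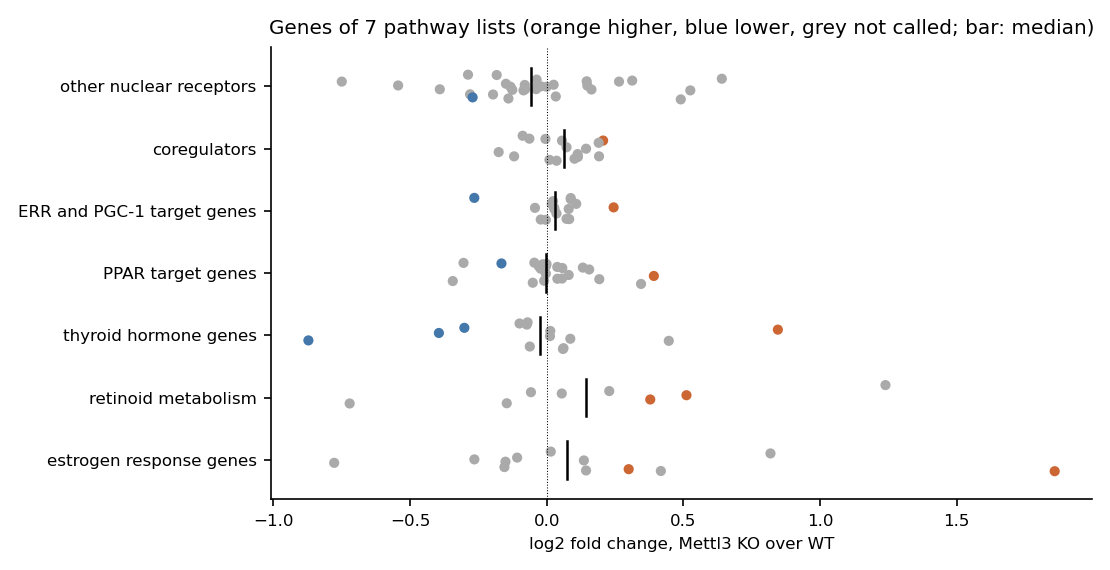
Log2 fold change of Mettl3 KO over WT (x axis) for the tested genes of 7 pathway lists, 1 point a gene, spread vertically only for legibility, with genes called by limma higher in orange, lower in blue and the rest in grey, and the median of each list as a bar. Medians lie between -0.06 and 0.08 apart from the retinoid list at 0.14.

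Cell type markers moved as well, and their counts of called genes stand beside 7.91% of all genes tested. Of 8 cardiomyocyte markers 1 was called, lower, and their sum was 23778 to 25059 in WT against 22225 to 25034 in Mettl3 KO. Of 8 fibroblast markers 7 were called, all 7 higher, with sums of 3521 to 3973 in WT against 4486 to 5184 in Mettl3 KO, and of 8 endothelial markers 4 were called, all 4 lower, with sums of 5223 to 5377 and 4504 to 4967. No marker of these 3 lists was at 0 in any library. The median log2 fold change was 0.40 over the fibroblast markers, -0.14 over the endothelial and 0.06 over the cardiomyocyte markers, beside 0.52 for Esrrb, 0.28 for Perm1 and 0.23 for Esrrg, and the part of cell makeup in these values was not tested. All 4 atrial genes listed were called higher, but with overlap, since their sum was 17 to 150 in WT against 146 to 911 in Mettl3 KO, and Bmp10 was at 0 in 5 libraries. With the mean log2 level of the other 3 atrial genes as a covariate, Esr1 gave 5.27, Esrrb 0.47, Esrrg 0.25 and Perm1 0.35 (limma adjusted p = 6.35e-18, 0.00593, 0.0486 and 0.000673), and all 4 kept their call, whereas the number of genes called fell to 897. This covariate differs by genotype and goes with a larger SE, as given above, and what lowered the number called was not tested.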

How the data were processed

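Stranded libraries from 1 µg of total heart RNA had been sequenced as single-end reads of 72 bases. In the study's methods, reads were trimmed by the authors with Trimmomatic 0.39 (mean quality 15, window 5), aligned with STAR 2.7.11a to mm39 with Ensembl release 109, removed duplicates with Picard 3.1.1, and multi-mapping, ribosomal and mitochondrial reads, counted exon reads by strand with featureCounts 2.0.4 and normalised with DESeq2 1.36.0. The values the authors deposited are these normalised counts rounded to whole numbers, a score and not raw counts, so no count model was run. For each library the scaling factor (0.927 to 1.11) was estimated from the spacing of low values to recover reads, and its largest error on simulated data was 1e-05. After 2732 genes with a mean below 1 had been dropped, limma 3.58.1 (R 4.3.3) was run on log2(value + 1) of the remaining 20313, with an intensity trend in the prior variance and a single term for genotype, two-sided, with Benjamini-Hochberg adjustment over all genes. Fold changes of low genes are understated on this scale. The fit was tested on simulated data. Alternatives were other pseudocounts, filters and scalings, limma voom, the replicate number as a block, an atrial covariate, each library left out, and a correction for taken start positions, the last chosen after seeing the data. Exon lengths of 95.5% of genes were taken, by identifier, from mouse gene models of an older build, whose coordinates were left aside. The 8 genes and all lists were chosen with earlier results of these data known, and a few listed genes are not reported here and were left out of the counts. Named genes were the 8, Mettl3, Myh6, Nr1d1, Ppara, Ppargc1a, Ppargc1b, at most 4 called genes a list by size of change, and the 3 genes most like Esr1 and Perm1. Cs, Pdk4, Greb1, Thrb and Atp2a2 were named after their values were seen. Among other marker lists, smooth muscle and pericyte, macrophage and adipocyte each had 1 gene called, lower, of 8, 8 and 5 tested, beside 7.91% of all genes.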

Additional observations from a re-analysis of the deposited data

Results flagged for a closer look

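Aldh1a1, the retinaldehyde dehydrogenase gene, had 1 WT library apart from the other 3. Its values were 135, 134 and 138 in WT replicates 1 to 3 and 160 in replicate 4, and the gap of replicate 4 to the nearest of the others was 0.846 of the whole range of the group, above Dixon's 95% critical value for 4 samples. The Mettl3 KO libraries stood above it, at 179 to 195. Of the 72 groups of 4 values searched in this way, 1 was marked, where chance alone marks about 3.6.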

How the results depend on the processing

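Esr1 (log2 fold change 5.16 to 5.53), Esrrb (0.47 to 0.56), Esrrg (0.20 to 0.26) and Perm1 (0.25 to 0.35) kept their direction and their call in all 19 alternatives, and the number called among the 8 genes was 4 in each. The genes that were not called stayed so, but their small fold changes turned sign in places. With the atrial covariate the log2 fold change was 0.040 for Esrra, 0.036 for Thra, 0.050 for Nr1d1, 0.14 for Ppara and 0.14 for Ppargc1a. Ppard gave -0.00078 with libraries scaled to equal totals, -0.0097 with an equal upper quartile, -0.00060 with voom on the deposited values and -0.0028 with voom on recovered reads, and Rxra -0.0072 with the upper quartile and -0.0038 with voom on recovered reads. Leaving out 1 library gave -0.077 to 0.017 for Esrra, -0.035 to 0.047 for Ppard, -0.040 to 0.060 for Rxra, -0.088 to 0.035 for Ppara and -0.048 to 0.056 for Ppargc1a. The number of genes called was 1607, 897 with the atrial covariate, and 1019 (without Mettl3 KO replicate 3) to 1596 with 1 library left out. The cause was not tested. Over all alternatives the genes called numbered 1 to 3 among other nuclear receptors, 1 to 2 among coregulators, ERR targets and PPAR targets, 0 to 5 among thyroid hormone genes, 0 to 2 among retinoid and estrogen response genes. Of the named genes of these lists, Mlycd kept its call in all 19. The replicate numbers did not pair the samples (same-number correlation -0.041 to 0.088), and with the replicate number as a block 1346 genes were called and Esr1, Esrrb, Esrrg and Perm1 kept their call (limma adjusted p 1.05e-12, 0.00143, 0.0126 and 0.00128), while Myh7 (0.0722) lost its call. Depth limits genes near the value of 2.78 to 3.33 that a count of 0 allows, such as Ccn5 in WT.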

Other observations

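In the 4 Mettl3 KO libraries the normalised values of Esr1, Perm1, Rxra and Myh6 fell in the order replicate 1, 3, 2, 4. This was also the order of the factor by which the authors' normalisation had scaled these libraries (1.11, 1.05, 0.989 and 0.930). Of 6779 genes with a mean of at least 100, 9.01% showed this order, and the share to be had by chance was not computed. The values of Esrra, Esrrb, Esrrg, Ppard and Thra did not. In Mettl3 KO, recovered reads had an SD of 1.33% of the mean for Esr1, 1.56% for Rxra, 2.15% for Perm1 and 2.06% for Myh6. Counting error alone gives 3.64%, 5.60%, 2.93% and 1.38% for the same genes. What set this spread was not tested.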
